A study of Homo sapiens with 6 samples.

Results

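The genes described here are 10 members of the AP-1 group of transcription factors: the FOS family (FOS, FOSB, FOSL1 and FOSL2), the JUN family (JUN, JUNB and JUND), and BATF3, MAFF and MAFG, which share the same kind of DNA-binding domain. They were chosen by symbol from the 29982 gene symbols of the deposited table, and the rule used only the symbols. All 10 were in the table, and all 10 were among the 13287 genes with a mean of at least 1 FPKM over the 6 libraries. FPKM counts the fragments of a transcript per unit of transcript length and per mapped read of the library, so that levels of different genes can be set side by side per length. The cells were OVCAR5, an established human ovarian cancer line, cultured with DMSO as vehicle (2 libraries) or with 10 μM SpiD7, a dimeric spirocyclic compound, for 2 h (2 libraries), 6 h (1 library) or 12 h (1 library). All groups were the same cell line, and the labels give no duration for DMSO and no separate cultures for the replicates. Where p-values are given they therefore measure only the spread between these libraries. The 6 h and 12 h time points have no replicates. FOS, FOSB, JUN and JUNB lay between the DMSO libraries in all 4 SpiD7 libraries, so that whether they were higher or lower after SpiD7 depended on which DMSO library they were compared with. MAFG was above both DMSO libraries in all 4. FOSL1, BATF3 and MAFF were above both after 6 h and 12 h. Each of these 4 genes was above by less than 2-fold of the higher DMSO library. Of all genes tested, 13.7% had both 2 h libraries above both, 31.6% were above both at 6 h and 30.1% at 12 h. The share above both in every SpiD7 library, as MAFG was, was not counted.

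The table gives replicate 1 of DMSO and of 2 h directly. The columns named for replicate 2 behaved as means of both libraries of a group, since 0 of 18195 rows above 0 in DMSO replicate 1 were at 0 in the DMSO column of that comparison (0 of 18722 for 2 h), and the columns had a sharp lower limit relative to replicate 1, on which 811 rows lay for DMSO and 963 for 2 h. Replicate 2 was recovered by subtracting replicate 1 at a weight of 0.526 for DMSO and 0.509 for 2 h, which assumes equal weights of the libraries. Every replicate 2 value below rests on that step, and the deposited means are given beside the main members. All FPKM values are on the scale of the comparison that holds replicate 1 of DMSO and of 2 h. The table holds no read counts, so the depth behind a value, and with it the counting error, is not known.

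AP-1 is a dimer of basic leucine zipper proteins. JUN proteins bind DNA as homodimers or with a FOS protein, FOS proteins need a JUN partner, BATF3 has no transactivation domain of its own and pairs with JUN proteins, and the small MAF proteins MAFF and MAFG pair with FOS, with NRF2-type factors or with each other. FOS, FOSB and JUNB are immediate early genes, transcribed within minutes of growth factor, serum or stress signals and silenced again soon after, whereas FOSL1, FOSL2 and JUND are known as more slowly changing members.

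The promoters of these genes are shown because several members had similar patterns across the libraries. The RefSeq promoter set (GRCh38.p14) held a promoter for 8 of the 10 members, FOSL1 and BATF3 being the other two, and 2 start sites for MAFF. In each window of 250 bases before the start site both strands were searched for TGACTCA (the consensus AP-1 site), TGACGTCA (the cAMP response element, bound by CREB, ATF and JUN proteins), TGACATCA (known from the JUN promoter, where JUN and ATF2 bind it) and TGACG (the first 5 letters of the cAMP response element, so that every TGACGTCA also counts here). The counts below are of members with the motif in any of their windows, whereas the shares of all promoters count each promoter once. Of the 8 members with a promoter, 7 had TGACG, against 21.2% of all 35116 promoters. TGACGTCA was in 2 of the 8 (1.65% of all promoters), TGACATCA in 1 (2.37%) and TGACTCA in 0 (4.2%). Other motifs were searched in the same way. TGACNNNGC (the core of the antioxidant response element, bound by NRF2 with a small MAF) was in 2 of the 8 (10.9%). The CArG box bound by SRF was in 0 (1.16%). Sites farther than 250 bases before the start site were not searched, so these counts say nothing about them. On the gene's own strand within 70 bases of the start site, TGACG was in 4 of the 8, against 5.46% of all promoters; this narrower window was chosen after the sequences were seen. The 30 bases around the element that lies nearest to the start on the gene's own strand are given 5′ to 3′ (JUND also has TGACG on the other strand, nearer to its start), and capitals mark the 8 letters that begin with TGACG or, in JUN, TGACATCA.

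FOS, chr14:75278753-75278782, plus strand: ggttgagcccgTGACGTTTacactcattca
FOSB, chr19:45467925-45467954, plus strand: caaggggcgggTGACGTAAgcaggggggcg
FOSL2, chr2:28392781-28392810, plus strand: gagtctggggtTGACGTGAgtgaatccaca
JUN, chr1:58784096-58784125, minus strand: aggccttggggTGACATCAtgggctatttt
JUNB, chr19:12791338-12791367, plus strand: cttcctgacagTGACGCGAgccgcctcctc
JUND, chr19:18281804-18281833, minus strand: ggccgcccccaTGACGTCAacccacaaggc
MAFF, chr22:38201929-38201958, plus strand: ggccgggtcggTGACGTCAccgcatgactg

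The capitals begin 64 bases before the RefSeq start in FOS, 60 in FOSB, 66 in FOSL2, 67 in JUN and 54 in MAFF, and farther away in JUNB (137 bases) and JUND (200 bases). The MAFG window and the window of the other MAFF start site held none of the 6 motifs. In the GENCODE annotation the JUN and MAFF windows shown lie inside a first exon, the FOS and FOSL2 windows run into an exon, and the others are upstream of the gene. A longer stretch is shown for FOS and FOSB, the genes with the widest range of levels, ending where the first annotated exon begins, with the same element in capitals.

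FOS, chr14:75278624-75278773, plus strand: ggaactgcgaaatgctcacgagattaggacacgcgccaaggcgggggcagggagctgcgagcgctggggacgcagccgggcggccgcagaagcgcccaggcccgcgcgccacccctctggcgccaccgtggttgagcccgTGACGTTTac
FOSB, chr19:45467845-45467994, plus strand: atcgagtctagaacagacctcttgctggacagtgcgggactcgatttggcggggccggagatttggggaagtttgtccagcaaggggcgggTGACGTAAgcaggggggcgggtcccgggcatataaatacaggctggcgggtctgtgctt

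A match of these letters is a description of the sequence, and binding was not measured.

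FOS, the prototype immediate early gene (chr14:75278774-75282230 in the GENCODE annotation of GRCh38, plus strand), was at 2.34 FPKM in DMSO replicate 1 and 373 in DMSO replicate 2. The SpiD7 libraries were at 263 and 338 (2 h), 164 (6 h) and 98.7 (12 h). All 4 SpiD7 libraries lay between the DMSO libraries, so that FOS was at least 42.2-fold higher than DMSO replicate 1 at every time and 1.42-fold lower (2 h replicate 1), 1.10-fold lower (2 h replicate 2), 2.27-fold lower (6 h) and 3.78-fold lower (12 h) than DMSO replicate 2. In the deposited mean columns FOS was at 197 in DMSO and 306 at 2 h, 1.55-fold higher. The log2 difference at 2 h over the recovered libraries was 3.31 with an SE of 2.76 (limma, 2 libraries against 2, adjusted p = 1).

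FOSB, a close relative induced by the same stimuli (chr19:45467995-45475179, plus strand), was almost undetected in DMSO replicate 1 at 0.127 FPKM and reached 156 in DMSO replicate 2. The 2 h libraries had 55.7 and 142, the 6 h library 55.5 and the 12 h library 40.7. Again the SpiD7 libraries lay between the DMSO libraries, and the 12 h library was 3.85-fold below DMSO replicate 2. The log2 difference at 2 h was 3.90 with an SE of 3.61 (limma, adjusted p = 1), and the deposited means were 82.4 in DMSO and 101 at 2 h. The deposited locus of FOSB spans 99205 bases and takes in ERCC1 on the other strand, and the strand setting of the counting was not given in the sources used here.

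FOSL1 (FRA-1, chr11:65892049-65900573, minus strand), a member linked to invasive carcinoma cells, had another pattern. It was at 177 and 166 FPKM in DMSO, 214 and 122 in the 2 h libraries, 241 after 6 h and 244 after 12 h. The 2 h libraries lay on either side of the DMSO libraries, while both later libraries lay above them, 1.36-fold and 1.38-fold over DMSO replicate 1 and 1.45-fold and 1.46-fold over DMSO replicate 2. Per length FOSL1 was the most abundant of the 10 members in DMSO replicate 1, at 6 h and at 12 h, and FOS was the most abundant in the other 3 libraries. The log2 difference at 2 h was -0.09 with an SE of 0.35 (limma, adjusted p = 1).

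FOSL2 (FRA-2, chr2:28392448-28417312, plus strand) was at 32.3 and 68.6 FPKM in DMSO, 40.6 and 54.8 in the 2 h libraries, 32.6 after 6 h and 28.8 after 12 h. At 12 h it was the only member below both DMSO libraries, by 1.12-fold for DMSO replicate 1 and 2.38-fold for DMSO replicate 2 (35.6% of all genes were below both). The mean log2 difference at 2 h was 0.00 with an SE of 0.47 (limma, adjusted p = 1).

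**Figure D1:**
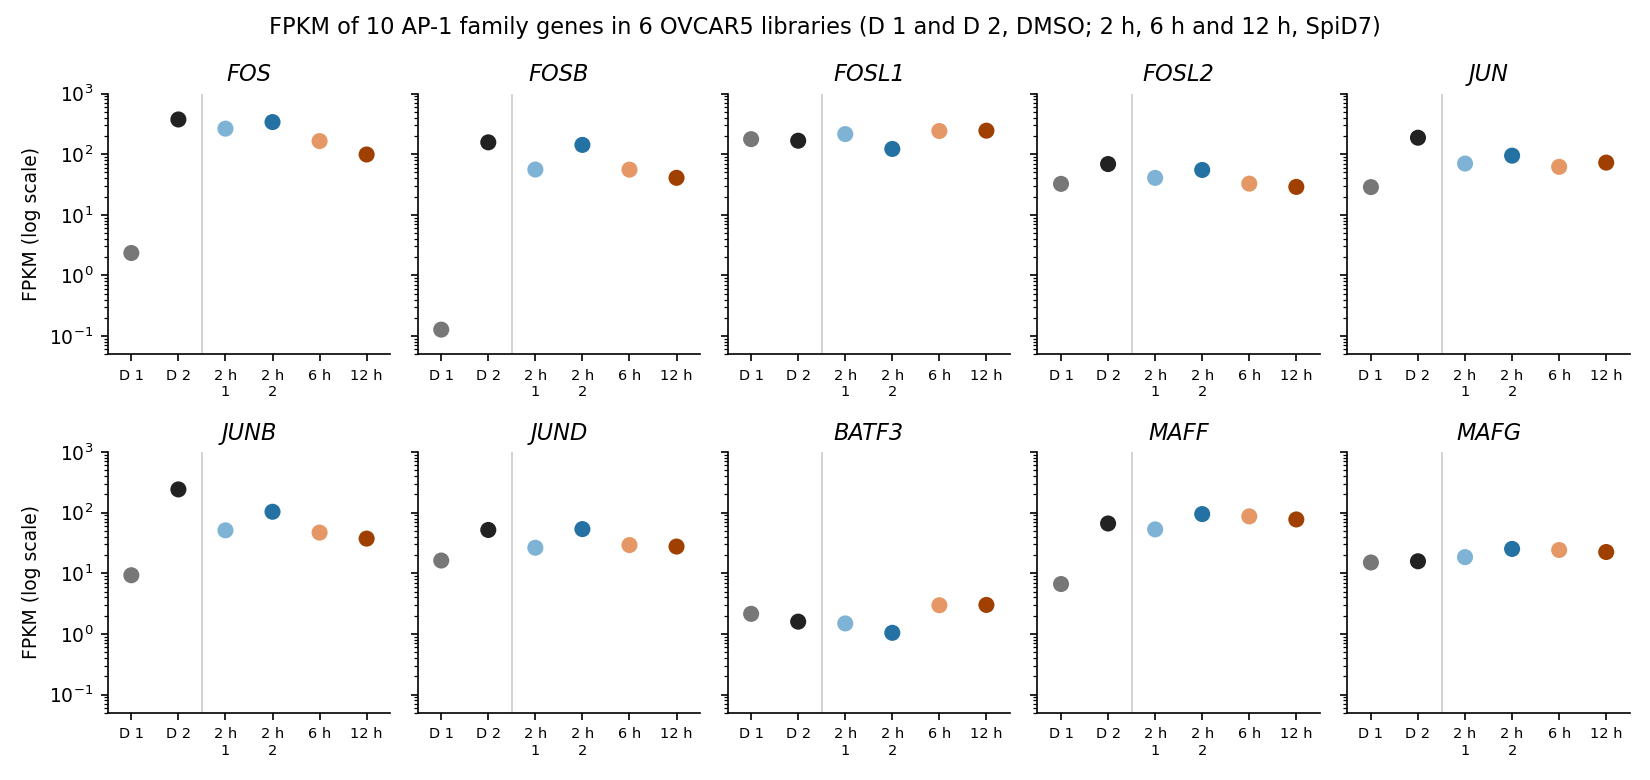
FPKM on a log axis (the same in every panel) of each of the 10 members in the 6 libraries, 1 point per library and no error bars. FOS, FOSB, JUN and JUNB have DMSO replicate 1 at the bottom, DMSO replicate 2 at the top and the 4 SpiD7 libraries between them, while FOSL1, FOSL2, BATF3 and MAFG each span less than 3-fold.

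JUN (chr1:58780788-58784327, minus strand), whose product is the core DNA-binding partner of AP-1, was at 28.6 FPKM in DMSO replicate 1 and 187 in DMSO replicate 2. The SpiD7 libraries were at 69.9 and 94.4 in the 2 h libraries, 61.7 after 6 h and 72.4 after 12 h. They stayed within a narrow band that was 2.16-fold (6 h) to 3.30-fold (2 h replicate 2) above DMSO replicate 1 and 1.98-fold to 3.02-fold below DMSO replicate 2. The deposited mean of 2 h (83.7) was 0.740 times that of DMSO (113). The log2 difference over the libraries was 0.15 with an SE of 1.05 (limma, adjusted p = 1).

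JUNB (chr19:12791496-12793315, plus strand), which often restrains JUN-driven transcription, was at 9.28 and 241 FPKM in DMSO, 51.1 and 103 in the 2 h libraries, 46.8 after 6 h and 37.3 after 12 h. It was the member farthest below DMSO replicate 2, by 4.73-fold and 2.34-fold in the 2 h libraries, 5.15-fold at 6 h and 6.47-fold at 12 h. Against DMSO replicate 1 it was 5.5-fold and 11.1-fold higher at 2 h, 5.05-fold at 6 h and 4.02-fold at 12 h. The log2 difference of the means at 2 h was 0.61 with an SE of 1.83 (limma, adjusted p = 1), whereas the deposited mean at 2 h (78.7) was 0.596 times that of DMSO (132), so the sign depended on whether means were taken of log2 values or of FPKM. JUNB overlaps HOOK2 on the other strand.

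JUND (chr19:18279760-18281622, minus strand), expressed in most resting cells, was at 16.2 and 51.8 FPKM in DMSO, 26.3 and 53.5 in the 2 h libraries, 29.2 after 6 h and 27.6 after 12 h. Its highest value was in 2 h replicate 2, close to DMSO replicate 2, and the other 3 SpiD7 libraries lay between the DMSO libraries. The deposited locus of JUND spans 28725 bases, far more than the annotated gene. Its log2 difference at 2 h was 0.37 with an SE of 0.76 (limma, adjusted p = 1).

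MAFF (chr22:38200767-38216511, plus strand), a stress-inducible small MAF, was at 6.64 and 66.2 FPKM in DMSO. It was at 52.9 and 94.6 in the 2 h libraries, 86.7 after 6 h and 77.1 after 12 h. All 4 SpiD7 libraries were at least 7.97-fold above DMSO replicate 1, and 3 of the 4 were above DMSO replicate 2, by 1.43-fold (2 h replicate 2), 1.31-fold (6 h) and 1.17-fold (12 h). The deposited means were 38.3 in DMSO and 75.2 at 2 h, 1.96-fold higher, and the log2 difference over the libraries was 1.75 with an SE of 1.30 (limma, adjusted p = 1). MAFF was thus the only one of the 5 members with the widest DMSO gap that stood above DMSO replicate 2 at 6 h and 12 h, by less than 2-fold. PLA2G6 overlaps it on the other strand.

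MAFG (chr17:81918270-81927714, minus strand), a small MAF known to pair with NRF2, was at 15.1 and 15.8 FPKM in DMSO, 18.4 and 25.2 in the 2 h libraries, 24.2 after 6 h and 22.4 after 12 h. It was the only member for which every SpiD7 library lay above both DMSO libraries. Both 2 h libraries were above both DMSO libraries for 13.7% of all genes. The 6 h library was above both for 31.6% of all genes and the 12 h library for 30.1%. The share of all genes with every SpiD7 library above both was not counted. The log2 difference at 2 h was 0.48 with an SE of 0.23 (limma, adjusted p = 1). Its locus overlaps SIRT7 and an antisense transcript.

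BATF3 (chr1:212686418-212699985, minus strand), best known for its role in dendritic cells, was low, at 2.14 and 1.59 FPKM in DMSO. It was at 1.49 and 1.04 at 2 h, below both DMSO libraries (8.1% of all genes). At 6 h and 12 h it was at 2.97 and 3.0, above both (31.6% and 30.1% of all genes). The log2 difference at 2 h was -0.53 with an SE of 0.28 (limma, adjusted p = 1).

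The vehicle libraries themselves differed for most of these genes. DMSO replicate 2 was more than 2-fold above DMSO replicate 1 for 7 of the 10 members, against 8.72% of all genes tested, and the gap was 1227-fold for FOSB, 159-fold for FOS, 26.0-fold for JUNB, 9.97-fold for MAFF, 6.53-fold for JUN, 3.19-fold for JUND and 2.12-fold for FOSL2. FOSB ranked 15 and FOS 33 among 13287 genes by this log2 difference. FOSL1 (0.942 times), BATF3 (0.743 times) and MAFG (1.05 times) did not share it, and 0 members were more than 2-fold below (4.77% of all genes). The median log2 difference of the members was 2.19, against -0.06 over all genes tested. Of 16 other basic leucine zipper genes tested, described below, 8 were also more than 2-fold higher in DMSO replicate 2, with a median log2 difference of 0.97. The 2 h libraries differed in the same direction by more than 2-fold for FOSB, JUNB and JUND, 3 members, against 6.43% of all genes, and 0 members differed by as much in the other direction (4.51%). The FPKM summed over the 10 members was 289 in DMSO replicate 1, 1328 in DMSO replicate 2, 794 and 1028 in the 2 h libraries, 744 after 6 h and 652 after 12 h.

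Other features of the libraries moved with the replicate number. MIR6723 took 25.0% and 21.8% of the summed FPKM in replicate 2 of DMSO and of 2 h, against 5.04% to 9.19% in the other 4 libraries. Of the 3 endothelial markers, PECAM1 and CDH5 were higher in both replicate 2 libraries and VWF was under 0.1 FPKM everywhere; their summed level was 11.5 FPKM in DMSO replicate 2 and 8.31 in 2 h replicate 2, and 0.441 to 1.20 in the other libraries. The summed level of 5 fibroblast markers was 3.12 and 2.73 FPKM in the replicate 2 libraries and 1.07 to 2.15 in the others. The 5 leukocyte markers summed to 27.6 to 42.2 FPKM, nearly all from CD68 and CD14, with PTPRC and CD3E under 0.1 in every library. The part of any of these in the members' values was not tested, and in such bulk RNA fewer cells of a type and less RNA per cell cannot be told apart. The 9 epithelial and ovarian carcinoma markers together summed to 3153 to 4723 FPKM, and the keratins and EPCAM were high in every library. CDH1 was between 10.4 and 19.3 FPKM, PAX8 was between 1.64 and 2.12 FPKM, and MUC16 and WT1 were under 1 FPKM.

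At 2 h the question was whether a short exposure changed these genes. By limma, 0 of the 10 members passed an adjusted p of 0.05, against 0.0226% of all genes (3 of 13287), and 0 had an unadjusted p under 0.05, against 2.84% of all genes (378). The mean log2 level was more than 2-fold higher for 3 members, FOS, FOSB and MAFF (2.32% of all genes), and more than 2-fold lower for 0 (0.662%). These mean differences rested on DMSO replicate 1. Without it the log2 difference at 2 h was -0.32 for FOS, -0.81 for FOSB and 0.10 for MAFF, and without DMSO replicate 2 it was 6.93, 8.61 and 3.39. Against DMSO replicate 1, 2 h replicate 1 was more than 2-fold higher for 5 members, FOS, FOSB, JUN, JUNB and MAFF (3.27% of all genes), and against DMSO replicate 2 it was more than 2-fold lower for FOSB, JUN and JUNB (7.42%). Against DMSO replicate 2, 2 h replicate 2 was more than 2-fold higher for 0 members (2.5% of all genes) and more than 2-fold lower for JUNB alone (1.05%). The groups did not overlap for MAFG, above in both libraries (13.7% of all genes), and BATF3, below in both (8.1%).

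**Figure D2:**
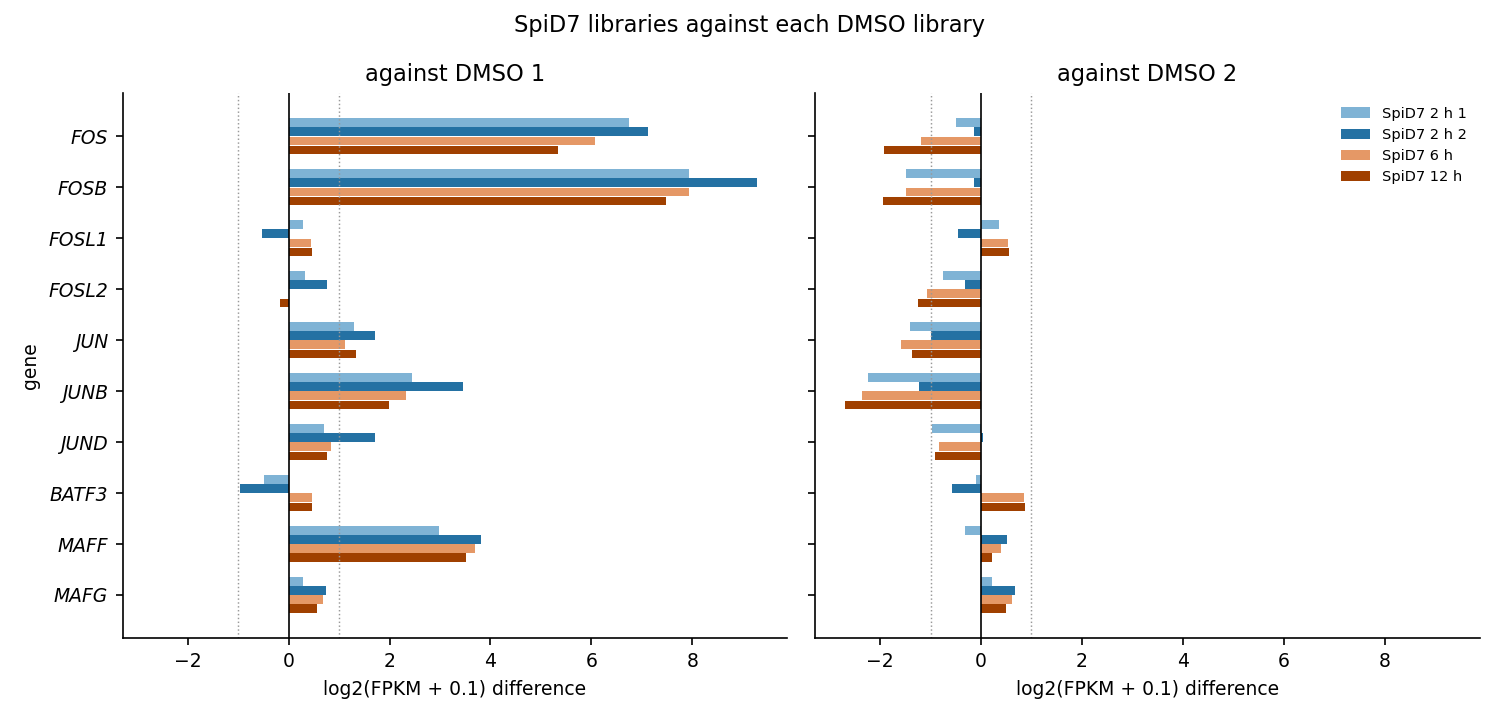
Differences in log2(FPKM + 0.1) of each SpiD7 library from DMSO replicate 1 (left) and DMSO replicate 2 (right) for the 10 members, with dotted lines at a 2-fold difference and no error bars. FOS, FOSB, JUN and JUNB lie to the right of 0 in the left panel and to the left of 0 in the right panel, and MAFG lies to the right of 0 in both.

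The later time points, with 1 library each, were compared with each DMSO library in turn and without a test. The 6 h and 12 h comparisons share the DMSO libraries with each other and with 2 h. At 6 h, 5 members (FOS, FOSB, JUN, JUNB and MAFF) were more than 2-fold above DMSO replicate 1 (6.28% of all genes), and 5 (FOS, FOSB, FOSL2, JUN and JUNB) were more than 2-fold below DMSO replicate 2 (7.77%). At 12 h each of these groups had the same members, against backgrounds of 8.21% and 7.56%. More than 2-fold above DMSO replicate 2 were 0 members at 6 h (7.76% of all genes) and 0 at 12 h (7.01%), and more than 2-fold below DMSO replicate 1 were 0 at 12 h (4.03%) and 0 at 6 h (0.993%). Set against both DMSO libraries together, more than 2-fold above were 0 members at 6 h (3.21% of all genes) and 0 at 12 h (3.88%), and more than 2-fold below both were 0 at 6 h (0.61%) and 0 at 12 h (0.993%). FOSL1, BATF3, MAFF and MAFG were above both DMSO libraries at 6 h (31.6% of all genes) and at 12 h (30.1%), all by less than 2-fold of the higher one. Between the DMSO libraries were 6 members at 6 h (39.2% of all genes) and 5 at 12 h (34.3%). FOS, FOSB, JUN and JUNB were above DMSO replicate 1 and below DMSO replicate 2 in all 4 SpiD7 libraries, which held for 3.45% of all genes. The median log2 difference of the 10 members at 12 h was 1.05 from DMSO replicate 1 and -1.08 from DMSO replicate 2, against -0.06 and 0.00 over all genes. In a limma fit over all 6 libraries, in which the lone libraries are assumed to vary like the replicated groups, 0 members passed an adjusted p of 0.05 at 6 h or 12 h (0.294% and 0.339% of all genes), and 0 had an unadjusted p under 0.05 (5.55% and 9.19%).

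The 12 h library was lower than the 6 h library by 1.66-fold for FOS, 1.36-fold for FOSB and 1.26-fold for JUNB. In all, 7 of the 10 members were lower at 12 h than at 6 h, against 56.7% of all genes. JUN was 0.851 times as high at 6 h as at 12 h, and FOSL1 (0.987 times) and BATF3 (0.988 times) were nearly level.

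The make-up of each family by FPKM also differed between the libraries. FOSL1 was 83.5% of the summed FOS family FPKM in DMSO replicate 1, 21.8% in DMSO replicate 2, 37.3% and 18.6% in the 2 h libraries, 48.8% after 6 h and 59.2% after 12 h. FOS was 1.11% and 48.8% in DMSO, 45.9% and 51.5% in the 2 h libraries, 33.3% after 6 h and 24.0% after 12 h. Across the SpiD7 libraries the FOS share was thus lower and the FOSL1 share higher at 6 h and 12 h than in either 2 h library, while the DMSO libraries lay at or near the extremes of both shares. In the JUN family, JUNB was 17.2% and 50.3% in DMSO, 34.7% and 41.1% in the 2 h libraries, 34.0% after 6 h and 27.2% after 12 h, and JUN was between 37.6% and 52.8%. Of the summed FPKM of MAFF and MAFG, MAFF was 30.6% in DMSO replicate 1 and 74.2% to 80.8% in the other 5 libraries.

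**Figure D3:**
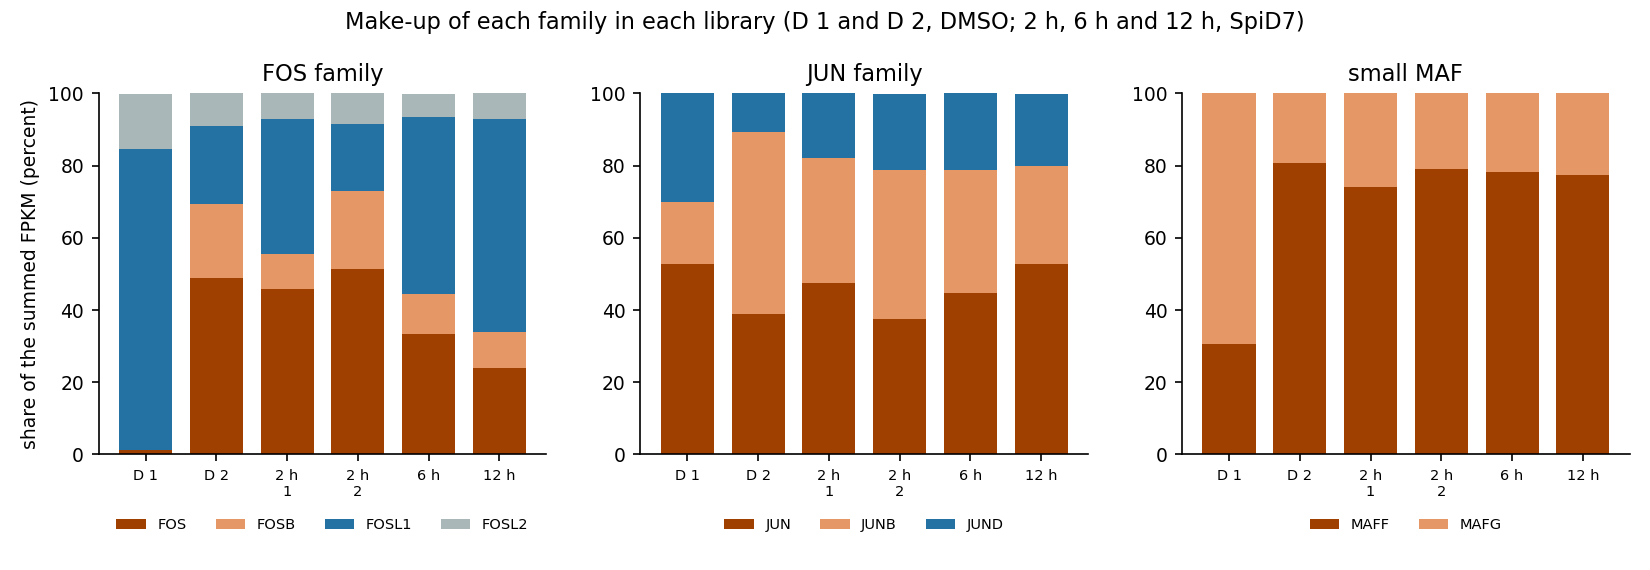
Stacked bars of each member's share, in percent, of the summed FPKM of the FOS family, the JUN family and the small MAF genes MAFF and MAFG, 1 bar per library. FOSL1 fills 83.5% of the FOS family bar in DMSO replicate 1 and FOS 1.11%, and MAFF is the larger share in every library but DMSO replicate 1.

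Pearson r was computed over the 6 libraries on the log2 scale used for the fits, and not on FPKM. The libraries share the replicate numbers and the gap between the DMSO libraries. FOS and FOSB had a Pearson r of 0.992, JUN and JUNB 0.982, and FOSB and MAFF 0.962. FOSL1 had its highest r with BATF3 (0.849) and its lowest with FOSL2 (-0.714). The genes outside the members with the highest r to FOS over the 6 libraries were ATF3 (0.992), NR2C1, MEF2A, ZFP36 and LOC101929647. Those nearest to JUNB were NR4A2 (0.996), IER2 (0.995), BTG2, EGR3 and TOB1, of which NR4A2, IER2, BTG2 and EGR3 are known immediate early genes. EGR3, a zinc finger factor, was at 0.0381 and 37.4 FPKM in DMSO, 4.94 and 10.9 in the 2 h libraries, 1.82 after 6 h and 1.71 after 12 h. BTG2, an antiproliferative gene, was at 1.71 and 116 in DMSO, 19.6 and 59.8 in the 2 h libraries, 17.8 after 6 h and 9.49 after 12 h. Nearest to MAFF were SLC50A1 (0.997), RND1, MIR22, MIR22HG and IDI1; MIR22 and its host MIR22HG had identical values and count once. SLC50A1 ranged only from 29.4 to 35.3 FPKM, so that a high r over 6 libraries does not carry the size of a change. With 6 points and 13287 genes these values are a description.

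Other basic leucine zipper genes that can pair with the members were followed as a list of 19, of which 16 were among the genes tested. By limma at 2 h, 0 of the 16 passed the adjusted threshold (0.0226% of all genes) and 1, DDIT3, had an unadjusted p under 0.05 (2.84%). At 12 h, 0 were more than 2-fold below both DMSO libraries (0.993% of all genes) and 2 were more than 2-fold above both (3.88%). DDIT3, which encodes the stress factor CHOP, was among the latter, 2.69-fold over the higher DMSO library. The list's median log2 difference at 12 h was 0.43 from DMSO replicate 1 and -0.39 from DMSO replicate 2, against -0.06 and 0.00 over all genes.

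Kinases and factors that act upstream of AP-1, from the ERK, JNK and p38 cascades to SRF and its cofactors, were a list of 21, of which 20 were tested. By limma at 2 h, 0 of the 20 had an adjusted or unadjusted p under 0.05 (0.0226% and 2.84% of all genes). At 6 h and at 12 h, 0 were more than 2-fold above both DMSO libraries (3.21% and 3.88% of all genes). More than 2-fold below both were also 0 (0.61% and 0.993%). SRF and MAPK11, 2 of the 20, named after their values were seen, were more than 2-fold below DMSO replicate 2 alone at both times. Of all genes, 7.77% at 6 h and 7.56% at 12 h were more than 2-fold below it. SRF, which drives FOS transcription through serum response elements, was at 8.42 and 26.6 FPKM in DMSO. The 2 h libraries had 16.5 and 28.7, the 6 h library 12.1 and the 12 h library 10.7. The list's median log2 difference between the DMSO libraries was -0.03, against -0.06 over all genes.

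Genes known to be activated through AP-1 sites were a list of 22, of which 20 were tested. Like the other lists, it was chosen with earlier results of these data known, so its counts are a description only. By limma at 2 h, 0 of the 20 passed the adjusted threshold (0.0226% of all genes) and 1, HMOX1, had an unadjusted p under 0.05 (2.84%). More than 2-fold above both DMSO libraries were 5 of the 20 at 6 h (3.21% of all genes) and 8 at 12 h (3.88% of all genes), the latter being MMP1, MMP3, MMP10, PLAUR, IL11, HBEGF, SPP1 and HMOX1. At either time 0 were more than 2-fold below both (0.61% and 0.993% of all genes). The list's median log2 difference at 12 h was 1.20 from DMSO replicate 1 and 0.87 from DMSO replicate 2, against -0.06 and 0.00 over all genes. MMP10, the matrix protease stromelysin 2, was at 0.0451 and 0.101 FPKM in DMSO, 0.0883 and 0.411 in the 2 h libraries, 2.55 after 6 h and 18.0 after 12 h. MMP1, interstitial collagenase and a standard AP-1 target, was at 0.380 and 0.466 in DMSO, 0.446 and 0.296 in the 2 h libraries, 2.38 after 6 h and 18.4 after 12 h, 39.5-fold over the higher DMSO library. Both proteases were under 0.5 FPKM in DMSO and at 2 h, and the 12 h library was far above these levels.

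IL11, a cytokine of the IL6 family, was at 1.75 and 1.19 FPKM in DMSO, 3.94 and 1.81 in the 2 h libraries, 41.4 after 6 h and 45.1 after 12 h, 25.8-fold over the higher DMSO library at 12 h. HMOX1, the haem-degrading enzyme that is also a classic NRF2 target, was at 36.7 and 36.1 in DMSO, 245 and 354 in the 2 h libraries, 773 after 6 h and 529 after 12 h (log2 difference at 2 h 3.01, limma, adjusted p = 0.539). IL6, IL8 and LIF, cytokines named after their values were seen, were arranged like FOS and JUNB. In all 4 SpiD7 libraries they were above DMSO replicate 1 and below DMSO replicate 2. That held for 3 of the 20 genes tested from this list and for 3.45% of all genes. IL8 was at 0.421 and 190 FPKM in DMSO, 1.69 and 43.4 in the 2 h libraries, 2.22 after 6 h and 2.50 after 12 h, and IL6 was at 0.569 and 68.4 in DMSO, against 1.47 after 12 h. For IL6, IL8 and LIF the replicate 2 library was also the higher one at 2 h.

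**Figure D4:**
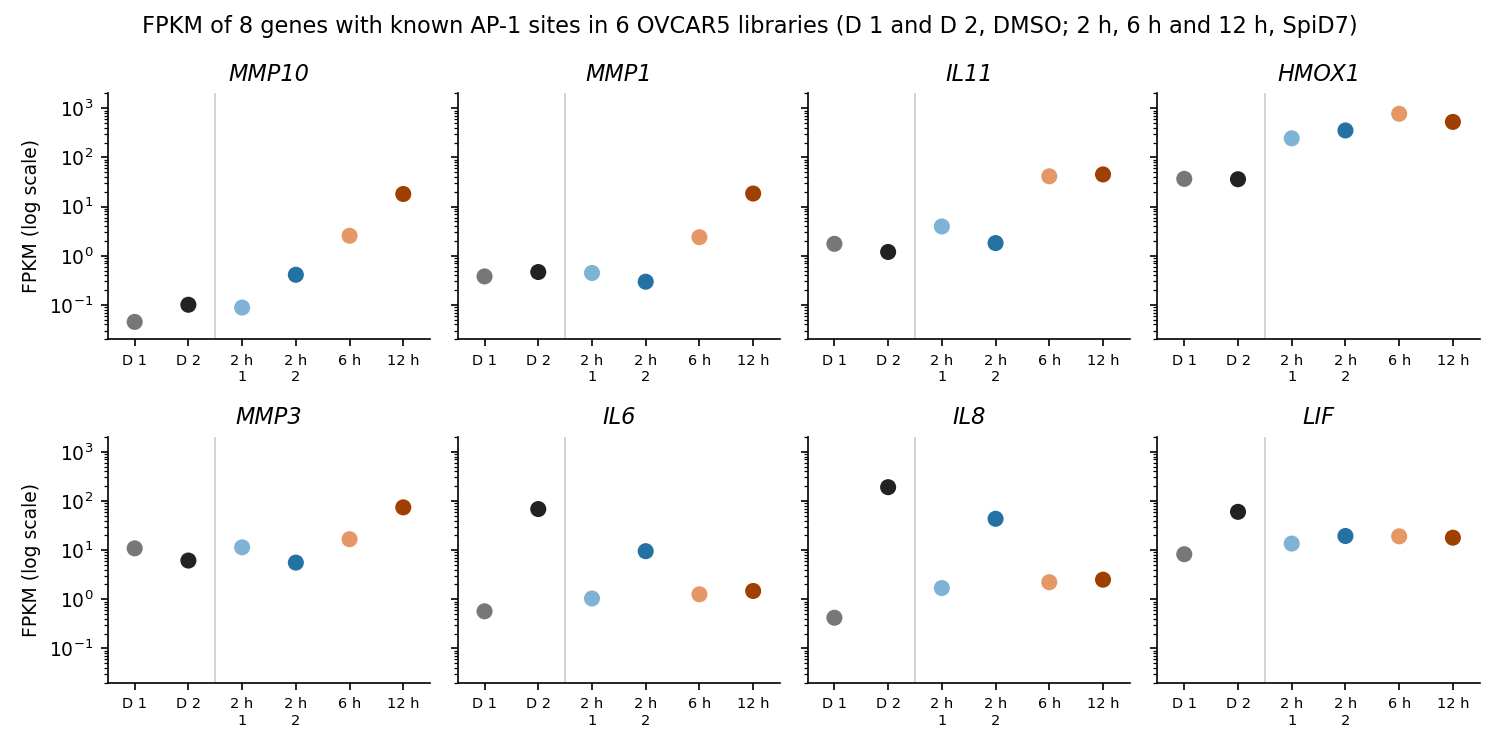
FPKM on a log axis (the same in every panel) of 8 genes with known AP-1 sites in the 6 libraries, 1 point per library and no error bars. MMP10, MMP1, IL11, HMOX1 and MMP3 have both DMSO libraries well below 12 h, while IL6, IL8 and LIF are highest in DMSO replicate 2.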

How the data were processed

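RNA of OVCAR5 cells was sequenced as single reads. Per the labels and the study's methods, the authors trimmed the reads with Trim Galore, aligned them with TopHat2 2.0.8, and estimated and compared expression with Cufflinks and Cuffdiff 2.1.1. The methods name a mouse build, whereas the deposited loci are human and the submitters' processing notes also list hg38. What the authors deposited is a table of 4 comparisons, each scaled separately, with an FPKM on either side, and, for each comparison, a log2 fold change, a p-value and a q-value of their own, which were not used. No read counts were used here and 0 columns were left without a sample or group.

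The deposited FPKM were processed as follows. Rows of a symbol were summed (29982 symbols in 33085 rows), the 6 h and 12 h columns were divided by 0.972 and 0.994 (the ratio of the shared DMSO library to its first scale), and replicate 2 was recovered from the mean columns. The weight of replicate 1 was the lower limit of the ratio of the columns (811 rows for DMSO and 963 for 2 h), and what was left was set to 0 where it came to less than 0.2% of the mean. The filter kept 13287 genes (mean FPKM 1 or more) and log2(FPKM + 0.1) was used, which understates changes of low genes. Fold values are ratios of FPKM, and calls of more than 2-fold use the log2 scale. For 2 h against DMSO, limma 3.58.1 under R 4.3.3 was fitted (Benjamini-Hochberg adjustment over all 13287 genes). The fitting step was also run on simulated data with independent noise of equal size for all genes. That run does not show the power of the fit in these libraries. The single libraries at 6 h and 12 h were set against each DMSO library without a test. Other steps ran in Python 3.11.15 (pandas 2.3.3).

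The 10 members and all gene lists were chosen with earlier results of these data known. All 10 members were named, with the 5 other genes of highest Pearson r over the 6 libraries for FOS, JUNB and MAFF, and, from each list, at most the 4 genes largest in each direction among those more than 2-fold from both DMSO libraries at 12 h. The values of some listed genes are not reported here. Exceptions are said to be named after their values were seen, as are MMP3, PLAUR, HBEGF and SPP1, named to complete a count, MIR6723, and the marker genes. Sequences are from RefSeq (GRCh38.p14) and gene positions from GENCODE (GRCh38). The alternatives varied the pseudocount, the filter, the scaling and the summing of symbols, and tried the mean columns taken as libraries, a replicate block, an intensity trend, a fit of all libraries, and leaving out each replicate.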

Additional observations from a re-analysis of the deposited data

Results flagged for a closer look

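BATF3 moved in opposite directions at different times: both 2 h libraries were below both DMSO libraries, whereas the 6 h and 12 h libraries were above both. Of all genes tested, 8.1% had both 2 h libraries below both, 31.6% were above both at 6 h and 30.1% at 12 h. The share with the whole pattern was not counted. The log2 difference from the mean of the DMSO libraries came to -0.53 after 2 h, 0.66 after 6 h and 0.67 after 12 h. The difference between the times was not tested, since 6 h and 12 h have 1 library each, and BATF3 lies between 1.04 and 3.0 FPKM in every library.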

How the results depend on the processing

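Over all genes, limma at 2 h called 3 genes, against 1 with a pseudocount of 1, 6 with 0.01, 0 without a filter on low values, 1 with upper-quartile scaling, 5 with an intensity trend and 0 with the replicate number as a block. With the mean columns taken as libraries it called 110 genes, a fit in which those columns, read as means, contain replicate 1. Leaving out a library gave 0 to 21 genes. Under each of these settings 0 members were called. The labels tie same-numbered libraries to no shared culture, batch or day. The deviations of the 2 pairs correlated at 0.369, and some features were high in both replicate 2 libraries. Whether they share a source was not tested. As an alternative, the block gave adjusted p-values for the members of 0.329 (BATF3) and higher.

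More than 2-fold above both DMSO libraries were 0 members at 6 h and at 12 h, against 1 (MAFF) with the mean columns taken as libraries. Without DMSO replicate 2 the count was 5 at each time, and without DMSO replicate 1 it was 0. More than 2-fold below were 0 members, against 5 without DMSO replicate 1 and 0 without DMSO replicate 2. The log2 difference of FOSL2 at 2 h (0.00) turned to -7.1e-05 with a pseudocount of 1, -0.042 with median-ratio scaling and -0.033 with upper-quartile scaling, and that of FOSL1 (-0.09) to 0.10 with the mean columns taken as libraries.

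Leaving out a library moved the 2 h difference between -0.32 and 6.93 for FOS, -0.81 and 8.61 for FOSB, -0.49 and 0.32 for FOSL1, -0.54 and 0.54 for FOSL2, -1.20 and 1.5 for JUN, -1.73 and 2.96 for JUNB and -0.46 and 1.21 for JUND. BATF3, MAFF and MAFG kept their direction in these fits. No read depth was given in the table, so no limit of detection can be stated, and the recovered libraries carry the error of both columns they come from. The count of 7 members more than 2-fold above in DMSO replicate 2 was 6 or 7 under every setting that could be run.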
